A study of Homo sapiens with 18 samples.

Results

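The ATF4 stress response and the cytosolic tRNA synthetases were followed through 37 genes in RPE-1, a line of human retinal pigment epithelium immortalized with hTERT. The genes were chosen by name, with no measured value in the rule, but with earlier results of these data known. All 37 were among the 33121 genes listed in the deposited tables, and all 37 passed the low-count filter that left 13676 genes for testing. By role they comprise 9 transcription factors and regulators, 8 amino acid transporters, 8 enzymes and other targets, and 12 cytosolic synthetases. The tables list the synthetases under older symbols, such as AARS for AARS1.

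Poly(A)-selected RNA was sequenced from 6 groups of 3 libraries. In 3 groups the cells were transfected for 2 days with an siRNA against MondoA (siMondoA), an siRNA against Mlx (siMlx) or a control siRNA (siControl, called siLuci in the library names) and then kept for 3 days in 150 ng/ml doxorubicin (DXR), which damages DNA. The other 3 groups received the same siRNAs, also for 2 days, and no drug. MondoA, encoded by MLXIP, is a glucose-responsive transcription factor and MLX is its DNA-binding partner; the study concerns MondoA and cellular senescence. All groups are of 1 cell line, and the sources used here give neither the sequences nor the number of siRNAs per target. On the times given, the DXR groups also stood 3 days longer after the start of transfection. The drug and that time cannot be told apart in any comparison of DXR with untreated cells. The library names carry the tag D5 with DXR and D0 without it, and the labels do not explain these tags. The labels do not say that the libraries of a group are separate cultures, so each p-value reflects the spread among libraries, which may be technical.

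Library totals ran from 15503423 to 29219280 counts, and the lowest correlation of log2 CPM between replicates was 0.9901. MLXIP stood at 3.85 ± 0.65 CPM with siMondoA, against 68.7 ± 4.6 with siControl, in untreated cells, and at 2.36 ± 0.65 against 64.6 ± 1.7 with DXR (mean ± SD, n = 3 here and below; CPM, counts scaled to library size by TMM). MLX stood at 7.00 ± 0.18 CPM with siMlx, against 26.3 ± 0.95 with siControl, in untreated cells, and at 5.52 ± 0.53 against 26.5 ± 0.21 with DXR. MLX was also higher with siMondoA than with siControl, at 49.2 ± 2.6 CPM untreated and 43.8 ± 1.4 with DXR. Of 10 pigment epithelium markers, RPE65, RLBP1, PMEL, TYR, TTR and SERPINF1 had 13 counts or fewer in every library, while MITF averaged 32.5 ± 1.4 and OTX2 21.3 ± 1.1 CPM in untreated siControl cells. The 6 blood and endothelial markers summed to 0.959 to 4.51 CPM over the libraries.

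The integrated stress response slows general translation by phosphorylation of the initiation factor eIF2, which lets the mRNA of ATF4 be translated. The eIF2 kinases answer to amino acid shortage, unfolded protein in the endoplasmic reticulum, double-stranded RNA and haem or mitochondrial stress. ATF4 binds DNA as a dimer with C/EBP family proteins at a composite element, the C/EBP-ATF response element, also called the amino acid response element. Its targets import and make amino acids, charge tRNAs with them, and feed back on the response. ATF4 protein is set mainly by translation, so the ATF4 transcript is an indirect reading of the pathway.

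The promoters of the members were read for the core of that element, TGATGNAAN, on both strands, in RefSeq promoters on GRCh38.p14 that span 250 bases before to 50 after each listed start. Of the 37 members, 33 had a promoter in the table, and 15 of these (45.5%) held the core in at least 1 promoter. The share was 2.72% of the 10584 tested genes that had an entry, out of 13676 tested, and 4.45% of all 27305 genes in the table. NUPR1, SLC7A11, LARS and YARS had no entry. The synthetases held it most often, in 7 of 10 with an entry (70.0%), and the transporters in 4 of 7 (SLC7A1, SLC3A2, SLC1A4 and SLC1A5). Among the regulators it was found in ATF3 and CEBPG, and among the enzymes in CHAC1 and ASNS. The stricter form TGATGCAAT, a subset of the core, was found in TARS alone among members and in 0.142% of tested genes with an entry. A match is a description of the letters, not of binding, and a window with no match says nothing of ATF4.

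Promoters of ASNS and CHAC1, long used as readouts of the pathway, are given whole, on the strand of the gene and with the matched core in capitals. ASNS lies at chr7:97872359-97872658 on the minus strand, and CHAC1 at chr15:40953221-40953520 on the plus strand, where the core reads on the opposite strand.
ASNS promoter: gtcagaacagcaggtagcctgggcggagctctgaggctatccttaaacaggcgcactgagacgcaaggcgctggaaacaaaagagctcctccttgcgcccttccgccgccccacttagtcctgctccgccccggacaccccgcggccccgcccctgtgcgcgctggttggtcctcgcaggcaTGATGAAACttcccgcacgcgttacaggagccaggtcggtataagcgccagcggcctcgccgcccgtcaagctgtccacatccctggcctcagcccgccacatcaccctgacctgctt
CHAC1 promoter: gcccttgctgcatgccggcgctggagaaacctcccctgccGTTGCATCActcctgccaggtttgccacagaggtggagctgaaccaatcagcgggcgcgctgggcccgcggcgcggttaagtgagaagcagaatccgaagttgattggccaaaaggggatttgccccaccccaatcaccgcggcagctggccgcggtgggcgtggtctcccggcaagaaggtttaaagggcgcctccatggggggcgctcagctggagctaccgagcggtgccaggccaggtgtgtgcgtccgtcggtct

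Matches of the synthetases are shown with 21 bases on each side, since this class held the core most often. NARS carries it on the strand of the gene, and the other 6 on the opposite strand, where the core appears as its reverse complement.
AARS: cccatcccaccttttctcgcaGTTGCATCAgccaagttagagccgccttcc
CARS: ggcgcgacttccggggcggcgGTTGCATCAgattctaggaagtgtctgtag
GARS: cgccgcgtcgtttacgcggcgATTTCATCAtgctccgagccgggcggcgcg
IARS: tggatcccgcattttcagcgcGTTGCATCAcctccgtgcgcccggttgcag
MARS: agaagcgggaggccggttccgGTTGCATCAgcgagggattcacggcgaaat
NARS: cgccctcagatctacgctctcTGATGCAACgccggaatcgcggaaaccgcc
TARS: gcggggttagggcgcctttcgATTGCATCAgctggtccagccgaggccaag
Read on its own strand, the core was TGATGCAAC in AARS, CARS, IARS, MARS and NARS, TGATGAAAT in GARS and TGATGCAAT in TARS.

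Levels between genes were compared in the deposited RPKM, which are per kilobase of gene. In untreated siControl cells STC2, which encodes the secreted glycoprotein stanniocalcin 2, was the highest member at 446 ± 25 RPKM. SLC7A5 followed at 172 ± 34, SLC38A2 at 157 ± 4.2, GARS at 101 ± 6.5 and ATF4 at 91.4 ± 1.5 RPKM; the libraries of SLC7A5 and SLC38A2 did not separate beyond their spread. The 12 synthetases lay between 18.8 RPKM (CARS) and 101 RPKM (GARS). The lowest members were CBS at 1.29 ± 0.23, CTH at 1.05 ± 0.095 and ATF3 at 1.05 ± 0.026 RPKM, with CHAC1 at 1.45 ± 0.063, so their changes rest on few counts.

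**Figure D1:**
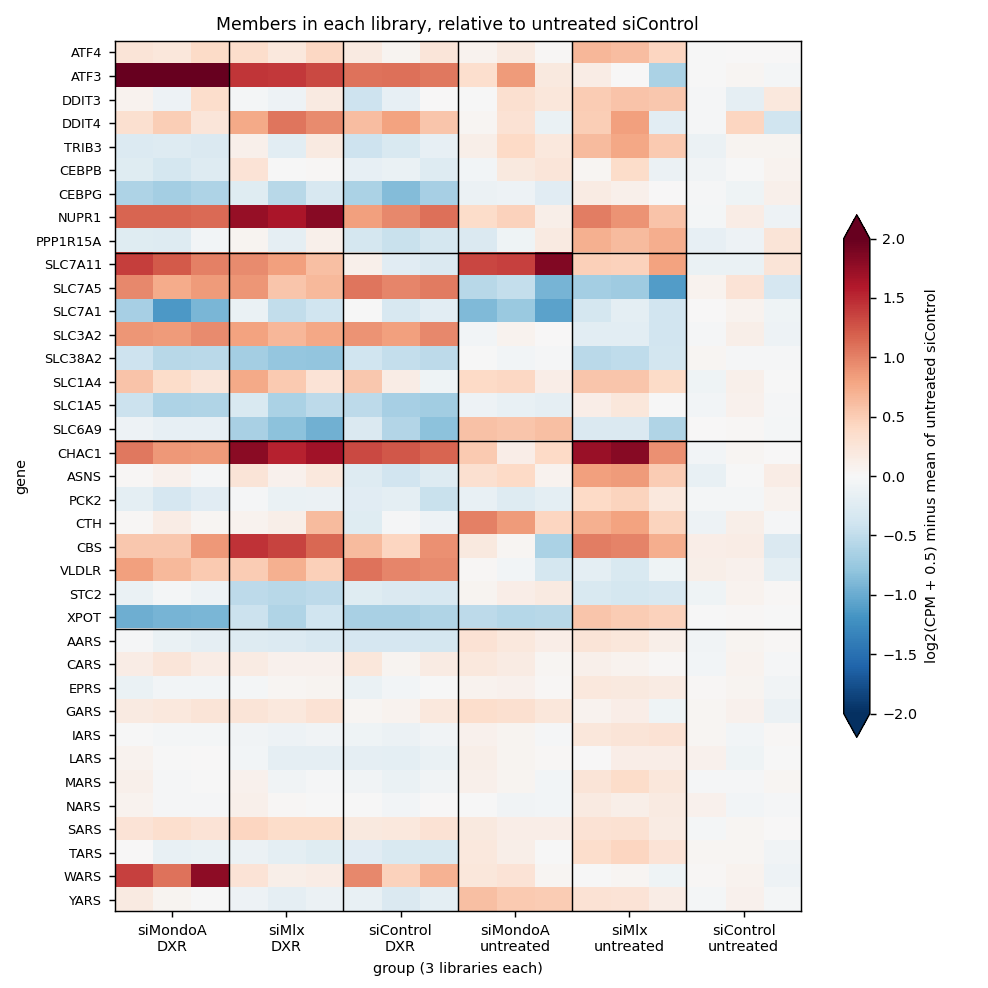
Heat map of the 37 members (rows, by class) in 18 libraries (columns, 3 per group), as log2(CPM + 0.5) minus the mean of the untreated siControl libraries; colours end at 2 in either direction. ATF3, NUPR1, SLC7A5 and SLC3A2 are red in every DXR library, ATF4 and XPOT are redder in untreated siMlx than in other untreated libraries, and SLC7A11 is red with siMondoA in both conditions.

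In untreated cells, siMlx raised the transcripts of many of the listed genes, and ATF4 activity was not measured. ATF4 itself, the stress factor DDIT3, the feedback genes TRIB3 and PPP1R15A, the asparagine and sulfur amino acid enzymes, and most synthetases rose, while most amino acid transporters fell. Of the 37 members 21 rose and 6 fell at an adjusted p under 0.05 (edgeR quasi-likelihood test, two-sided, Benjamini-Hochberg over the 13676 genes, here and below), and the median log2 fold change was 0.24. Across all tested genes, 24.9% passed upward and 23.0% downward, and the median was 0.02, so the members' share that rose was above the background and the share that fell below it. Changes are log2 fold changes with their standard errors (SE). The libraries are bulk samples, so fewer cells with a transcript and less of it per cell cannot be told apart.

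Marker lists of cell state moved with the same knockdown. In untreated cells the summed level of the 6 mesenchymal markers was 4673 to 5218 CPM with siMlx, against 3234 to 3848 with siControl. VIM, the intermediate filament vimentin, made up most of that sum and rose by 0.57 (SE 0.09, adjusted p = 3.55e-05), COL1A1 rose by 0.64 (SE 0.22), and PDGFRB fell by 0.97 (SE 0.12). The 4 epithelial markers summed to 324 to 421 CPM with siMlx, against 497 to 688 with siControl, nearly all of it KRT8 and KRT18, with CDH1 and EPCAM near 0. The 10 pigment epithelium markers summed to 33.2 to 38.8 CPM, against 53.8 to 58.1, and MITF fell by 0.75 (SE 0.08) and OTX2 by 0.46 (SE 0.10). None of these sums overlapped between the groups, nor did those under DXR: 4321 to 4716 CPM with siMlx, against 3448 to 3696 with siControl, for the mesenchymal list, 941 to 1017 against 1119 to 1171 for the epithelial list, and 33.3 to 37.1 against 46.3 to 51.2 for the pigment epithelium list. The higher mesenchymal sum under DXR was not shared across that list. Of its 5 tested markers 1 rose with siMlx (20.0%, against 14.0% of all tested genes) and 4 did not pass. Their changes ran from -0.86 to 0.43, with a median of 0.03. With siMondoA in untreated cells all 3 sums overlapped those of siControl, and under DXR the epithelial sum alone did not, at 1268 to 1348 CPM with siMondoA. The epithelial sum was also higher with DXR than in untreated siControl cells, and the pigment epithelium sum lower. That lower sum does not describe the whole list. Of its 4 tested markers 1 rose and 1 fell (25.0% each), against 28.1% and 28.6% of all tested genes. Their changes ran from -0.63 to 3.21, with a median of 0.07. The part of these shifts in the results for the members was not tested.

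Of the 9 regulators, 5 (55.6%) rose with siMlx in untreated cells, against 24.9% of all tested genes. None fell, and the class median was 0.55. ATF4, the factor that drives the response, had 285, 276 and 242 CPM with siMlx, against 179, 180.1 and 181 CPM with siControl. Every siMlx library lay above every siControl library, and ATF4 rose by 0.57 (SE 0.07, adjusted p = 1.46e-06). DDIT3, which encodes the stress factor CHOP, had 9.15, 9.64 and 9.39 CPM, against 6.19, 5.50 and 7.39 with siControl, and rose by 0.55 (SE 0.14, adjusted p = 0.00317). TRIB3, a pseudokinase that restrains ATF4 and CHOP, had 36.1, 39.9 and 33.3 CPM, against 21.3, 24.0 and 24.0 with siControl, and rose by 0.66 (SE 0.10, adjusted p = 1.6e-05). PPP1R15A, the GADD34 subunit that directs dephosphorylation of eIF2, had 131, 123 and 132 CPM, against 70.8, 73.6 and 95.2 with siControl. The groups of PPP1R15A did not overlap, and it rose by 0.68 (SE 0.11, adjusted p = 3.15e-05). NUPR1, a stress-induced nuclear protein, rose by 0.87 (SE 0.12, adjusted p = 3.72e-06) at 22.5, 20.5 and 16.3 CPM, against 10.5, 12.1 and 10.0 with siControl. ATF3 (-0.14), DDIT4 (0.42), CEBPB (0.11) and CEBPG (0.09) did not pass. ATF4 has pseudogenes, and DDIT3 shares 62 exon bases with MARS on the other strand. Larger overlaps with opposite-strand genes include those of DDIT4 (847 bases), SLC1A5 (780), MLX (770), VLDLR (738), WARS (272 with WDR25) and YARS (248). SLC7A5, WARS, XPOT and AARS have like-named copies. Neither the counting program nor its strand setting is given, so all these genes are uncertain to that extent.

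Enzymes and other targets went the same way, with 6 of 8 up, 1 down and a median of 0.63. These shares were 75.0% and 12.5%, against 24.9% and 23.0% of all tested genes. CHAC1, which breaks down glutathione, had 8.42, 9.04 and 4.59 CPM with siMlx, against 2.11, 2.29 and 2.24 with siControl. It rose by 1.73 (SE 0.20, adjusted p = 5.62e-07), and untreated siMlx replicate 3 lay well under the other 2 siMlx libraries but above every siControl library. ASNS, asparagine synthetase, had 24.9, 25.5 and 19.9 CPM, against 12.5, 13.9 and 15.5 with siControl, and rose by 0.75 (SE 0.10, adjusted p = 6.75e-06). CBS and CTH, which turn homocysteine into cysteine, rose by 1.01 (SE 0.20, adjusted p = 0.000289) and 0.77 (SE 0.19, adjusted p = 0.00266). Their highest library with siMlx had 7.41 CPM for CBS and 4.29 for CTH, against 3.82 and 2.50 with siControl. XPOT, the exportin that carries mature tRNAs out of the nucleus, had 229, 221 and 215 CPM, against 155, 157 and 154 with siControl. The XPOT groups were tight and apart, and it rose by 0.51 (SE 0.05, adjusted p = 6.59e-08). PCK2, mitochondrial phosphoenolpyruvate carboxykinase, rose by 0.37 and VLDLR, a lipoprotein receptor, did not pass (-0.20). STC2 fell by 0.33 (SE 0.05, adjusted p = 2.14e-05), at 1872, 1818 and 1865 CPM with siMlx, against 2181, 2435 and 2355 with siControl. CBS has a near-identical copy, CBSL, and ASNS shares 1985 exon bases with a transcript on its own strand, so reads of these genes may be split.

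Transporters went largely the other way: 2 of 8 rose, 5 fell and the median was -0.29. These shares were 25.0% and 62.5%, against 24.9% and 23.0% of all tested genes. SLC7A5, the light chain of the large neutral amino acid exchanger LAT1, had 476, 470.1 and 354 CPM with siMlx, against 803, 927 and 605 with siControl. It fell by 0.84 (SE 0.14, adjusted p = 4.81e-05). SLC3A2, the heavy chain that brings SLC7A5 and SLC7A11 to the cell surface, had 147, 147 and 130.1 CPM, against 167, 185 and 159, and fell by 0.27 (SE 0.06, adjusted p = 0.00185). SLC38A2, the sodium-coupled SNAT2, had 515, 525 and 579 CPM, against 771, 737 and 735 with siControl. No library of these 3 transporters overlapped between the groups, and SLC38A2 fell by 0.47 (SE 0.06, adjusted p = 1.09e-06). SLC6A9, a glycine transporter, fell by 0.39 (SE 0.11, adjusted p = 0.00425), at 36.2, 36.2 and 29.0 CPM against 44.8, 45.3 and 43.1. SLC7A1, a cationic amino acid transporter, fell by 0.31 (SE 0.11, adjusted p = 0.0249). Its call was lost without untreated siControl replicate 1 or 2, or without untreated siMlx replicate 1 or 3, at -0.31 to -0.28 and adjusted p = 0.0594 to 0.0804. SLC7A11, the cystine carrier, rose by 0.58 (SE 0.15, adjusted p = 0.00304) and SLC1A4, a neutral amino acid carrier, by 0.52 (SE 0.15, adjusted p = 0.00566), while its relative SLC1A5 did not pass (0.12).

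Synthetases rose by less, 8 of 12 (66.7%) passing upward and none downward, with a median of 0.20. Of all tested genes, 24.9% passed upward. TARS, for threonine, rose most, at 235, 247 and 221 CPM with siMlx against 188, 188 and 174 with siControl (0.36, SE 0.06, adjusted p = 0.000107). MARS, for methionine, rose by 0.29, IARS, for isoleucine, by 0.26, and SARS, for serine, by 0.25 (SE 0.06, 0.04 and 0.05). YARS, AARS, EPRS and NARS rose by 0.24, 0.20, 0.19 and 0.15. The NARS call was lost without untreated siControl replicate 2 or 3, at 0.13 and 0.14 (adjusted p = 0.0727 and 0.0583), when only these groups were fitted (0.14, adjusted p = 0.0678) and with no low-count filter (0.14, adjusted p = 0.132). LARS (0.09), CARS (0.07), GARS (0.04) and WARS (-0.02) did not pass. Of the 7 synthetases with the core in a listed promoter 5 rose, with a median of 0.20, and of the 3 with an entry and no match 2 rose, with a median of 0.19.

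**Figure D2:**
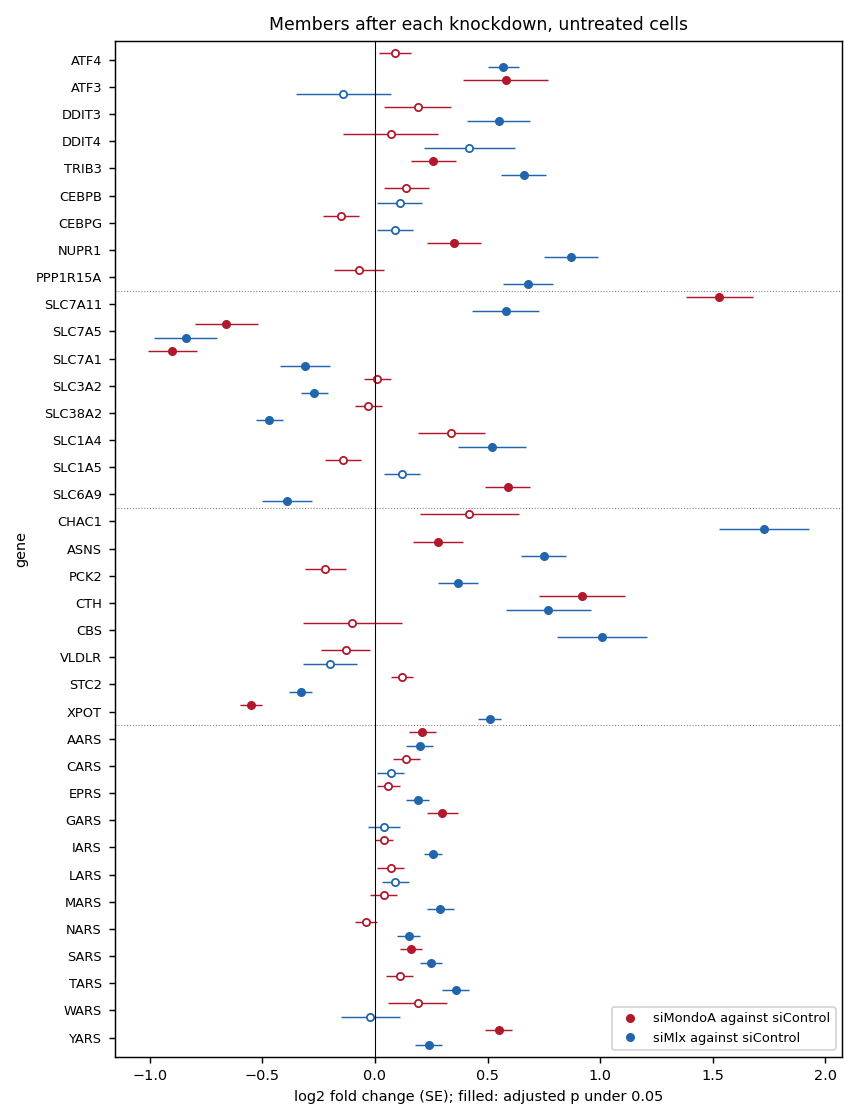
Log2 fold change (x axis, bars are SE) of each member (rows, by class) with siMondoA (red) and siMlx (blue) against siControl in untreated cells; filled points have an adjusted p under 0.05. XPOT and SLC6A9 lie on opposite sides of 0 with the 2 siRNAs, CHAC1 lies at 0.42 with siMondoA and 1.73 with siMlx, and SLC7A11 at 1.53 and 0.58.

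With siMondoA, untreated cells showed another pattern: the cystine carrier, the glycine transporter and a few synthetases rose, XPOT and the SLC7A1 and SLC7A5 transporters fell, and ATF4 did not pass. Of the 37 members 11 rose and 3 fell, with a median of 0.11, against 23.3% of all tested genes that rose and 23.3% that fell, with a median of 0.02. The share of members that rose, 29.7%, was near the background. Without untreated siControl replicate 1, or without untreated siMondoA replicate 2, 7 members rose. The siMondoA and siMlx comparisons share their siControl libraries.

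SLC7A11 had 165, 169 and 237 CPM with siMondoA, against 59.7, 59.5 and 78.1 with siControl. It rose by 1.53 (SE 0.15, adjusted p = 7.01e-08), the largest rise of a member in this comparison, and the groups were far apart. SLC6A9 had 66.7, 65.3 and 67.8 CPM, against 44.8, 45.3 and 43.1 with siControl, and rose by 0.59 (SE 0.10, adjusted p = 8.74e-05). SLC7A1 had 69.8, 76.6 and 61.5 CPM, against 130.4, 136 and 122 with siControl, and fell by 0.90 (SE 0.11, adjusted p = 1.97e-06). SLC7A5 had 520, 553 and 403 CPM, against 803, 927 and 605 with siControl, and fell by 0.66 (SE 0.14, adjusted p = 0.000573). The transporters thus moved in both directions, 2 up and 2 down (25.0% each, against 23.3% each of all tested genes), with a median of -0.01. SLC3A2 stood at 0.01 (adjusted p = 0.945). SLC6A9 overlaps CCDC24 and SLC7A11 overlaps an antisense gene in exon sequence.

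Among the regulators 3 of 9 (33.3%) rose with siMondoA, against 23.3% of all tested genes. ATF4 had 188, 204 and 182 CPM, against 179, 180.1 and 181 with siControl, and did not pass (0.09, SE 0.07, adjusted p = 0.328). DDIT3 (0.19, adjusted p = 0.306) and the CHAC1 enzyme gene (0.42, SE 0.22, adjusted p = 0.126) did not pass either. ATF3, a stress-induced factor of the same protein family, had 3.84, 5.71 and 3.45 CPM, against 2.94, 3.06 and 2.85 with siControl, and rose by 0.58 (SE 0.19, adjusted p = 0.0168). Its rise rests on untreated siMondoA replicate 2, without which it was 0.31 (adjusted p = 0.222). TRIB3 rose by 0.26 (SE 0.10, adjusted p = 0.0414), a call lost without untreated siControl replicate 1, 2 or 3 or untreated siMondoA replicate 2 or 3 (0.17 to 0.29, adjusted p = 0.051 to 0.235). NUPR1 rose by 0.35 (SE 0.12, adjusted p = 0.0211), a call lost without untreated siControl replicate 1 or 3 or untreated siMondoA replicate 1 or 2 (0.26 to 0.33, adjusted p = 0.0617 to 0.127).

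XPOT had 109, 105 and 105 CPM with siMondoA, against 155, 157 and 154 with siControl, and fell by 0.55 (SE 0.05, adjusted p = 3.8e-08). No library of XPOT came near the other group. CTH rose by 0.92 (SE 0.19, adjusted p = 0.000526), at 5.01, 4.49 and 3.20 CPM against 2.07, 2.50 and 2.20. ASNS rose by 0.28 (SE 0.11, adjusted p = 0.037), a call lost without untreated siControl replicate 1 or 2 or untreated siMondoA replicate 1 or 2 (0.20 to 0.28, adjusted p = 0.0746 to 0.191), and also when only these groups were fitted (0.27, adjusted p = 0.0686) and with no low-count filter (0.26, adjusted p = 0.0507). Of the 12 synthetases 4 (33.3%) rose, against 23.3% of all tested genes. YARS, for tyrosine, had 246, 233 and 228 CPM, against 156, 170.0 and 157 with siControl, and rose by 0.55 (SE 0.06, adjusted p = 2.28e-07). GARS, for glycine, rose by 0.30 (SE 0.07, adjusted p = 0.000911) and AARS, for alanine, by 0.21 (SE 0.06, adjusted p = 0.00385). SARS rose by 0.16 (adjusted p = 0.0129), a call lost without untreated siControl replicate 1 (0.13, adjusted p = 0.0597) or untreated siMondoA replicate 1 (0.14, adjusted p = 0.0556), and with no low-count filter (0.14, adjusted p = 0.137). The other 8 synthetases lay between -0.04 and 0.19 and did not pass.

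Set directly against siMlx, siMondoA left many of the members lower in untreated cells. Of the members 8 were higher and 18 lower with siMondoA than with siMlx, with a median of -0.18, against 28.5% and 30.4% of all tested genes. XPOT differed by -1.06 (SE 0.05, adjusted p = 1.05e-12), at 106 ± 1.9 CPM with siMondoA and 222 ± 7.1 with siMlx, and ATF4 by -0.48 (SE 0.07, adjusted p = 6.93e-06). CHAC1 differed by -1.31 (SE 0.20), CBS by -1.11 (SE 0.21) and PPP1R15A by -0.75 (SE 0.11). SLC6A9 and SLC7A11 were higher with siMondoA, by 0.98 (SE 0.10, adjusted p = 1.22e-07) and 0.95 (SE 0.15, adjusted p = 1.44e-05). With DXR, 9 members were higher and 9 lower, against 18.9% and 20.0% of genes. Without siMondoA_DXR replicate 1, 5 were higher. With all 18 libraries fitted, WARS was the member furthest apart under DXR, 1.26 higher with siMondoA (SE 0.13, adjusted p = 3.07e-07).

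**Figure D3:**
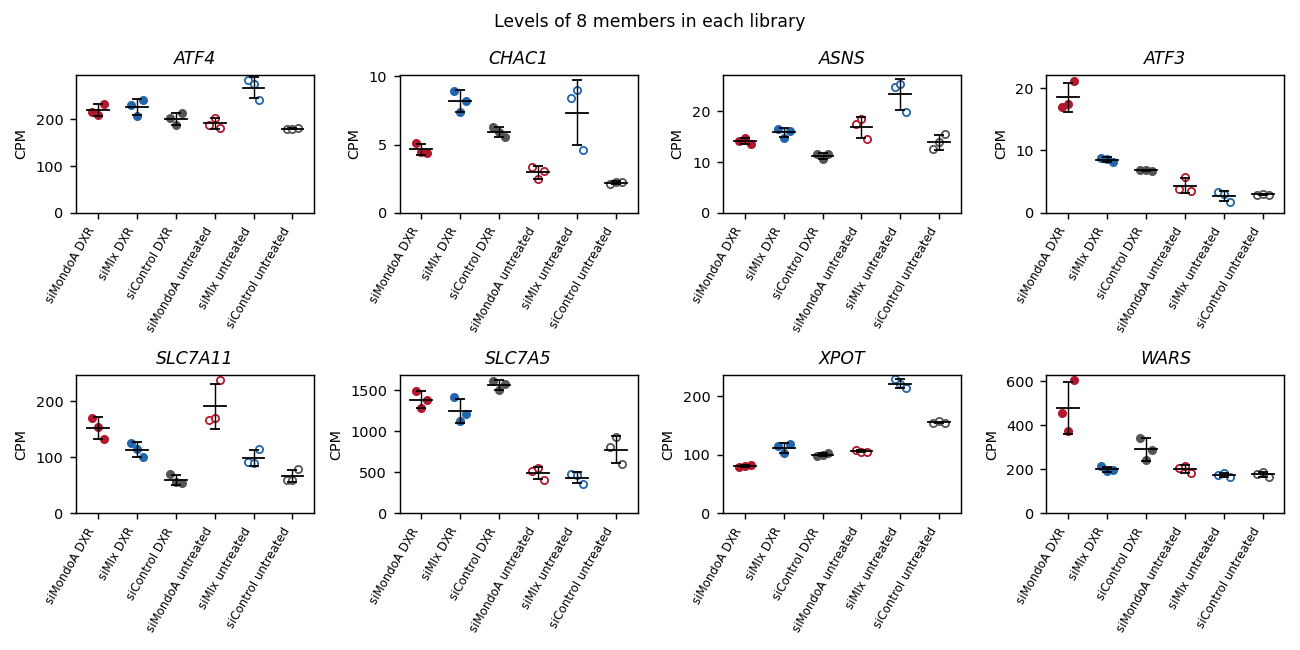
CPM (y axis, from 0) of 8 members in each of 18 libraries; points are libraries (filled with DXR, open untreated), horizontal lines are means and bars are SD, n = 3. ATF4 and CHAC1 in untreated siMlx, SLC7A11 in both siMondoA groups, ATF3 and WARS in siMondoA with DXR, and XPOT in untreated siMlx stand above the other siRNAs under the same treatment.

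DXR with siControl moved members in both directions, as it did genes at large. Here and below, a change with DXR cannot be told apart from one with the longer time since transfection. ATF3, NUPR1, CHAC1, CBS, the LAT1 pair and WARS rose, while CEBPG, XPOT, several other transporters and 4 synthetases fell, and ATF4 did not pass. Of the 37 members 11 rose and 14 fell, with a median of -0.14, against 28.1% of all tested genes that rose and 28.6% that fell, with a median of -0.01. The share of members that rose, 29.7%, was near the background, and the share that fell was 37.8%.

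Among the regulators 3 rose and 3 fell (33.3% each), against 28.1% and 28.6% of all tested genes. ATF3 had 6.83, 6.91 and 6.66 CPM with DXR, against 2.94, 3.06 and 2.85 untreated, and rose by 1.21 (SE 0.18, adjusted p = 1.26e-05). NUPR1 had 19.5, 21.6 and 23.9 CPM, against 10.5, 12.1 and 10.0 untreated, and rose by 1.01 (SE 0.11, adjusted p = 4.15e-07). CEBPG, a dimer partner of ATF4, had 20.4, 17.3 and 19.9 CPM, against 31.5, 30.1 and 34.1 untreated. All CEBPG libraries with DXR lay below all untreated ones, and it fell by 0.74 (SE 0.08, adjusted p = 4.11e-07). ATF4 had 204, 187 and 213 CPM, against 179, 180.1 and 181 untreated, and did not pass (0.16, SE 0.07, adjusted p = 0.0579), nor did DDIT3 (-0.21, adjusted p = 0.248). TRIB3 fell by 0.29 (SE 0.10, adjusted p = 0.02), a call lost without siControl_DXR replicate 1 or untreated siControl replicate 2 or 3 (-0.27 to -0.24, adjusted p = 0.0585 to 0.0904). PPP1R15A fell by 0.40 (SE 0.11, adjusted p = 0.00461), and by 0.25 (adjusted p = 0.0494) without untreated siControl replicate 3. DDIT4, an inhibitor of mTORC1 signalling, rose by 0.66 (SE 0.20, adjusted p = 0.0095), a call lost without untreated siControl replicate 3 (0.47, adjusted p = 0.0645).

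The LAT1 pair rose together: SLC7A5 had 1619, 1505 and 1583 CPM with DXR, against 803, 927 and 605 untreated. SLC3A2 had 318, 301 and 332 CPM, against 167, 185 and 159 untreated. They rose by 1.01 (SE 0.14, adjusted p = 4.24e-06) and 0.90 (SE 0.06, adjusted p = 1.13e-09). The other transporters that passed fell: SLC1A5 by 0.63 (SE 0.08, adjusted p = 1.34e-06), SLC6A9 by 0.56 (SE 0.11, adjusted p = 0.000158) and SLC38A2 by 0.47 (SE 0.06, adjusted p = 9.44e-07). SLC7A11, SLC7A1 and SLC1A4 did not pass (-0.14, -0.18 and 0.23).

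CHAC1 had 6.27, 5.94 and 5.56 CPM with DXR, against 2.11, 2.29 and 2.24 untreated, and rose by 1.42 (SE 0.20, adjusted p = 6.24e-06). VLDLR had 28.8, 26.8 and 26.0 CPM, against 14.5, 14.2 and 11.5 untreated, and rose by 1.03 (SE 0.11, adjusted p = 1.45e-07). XPOT had 98.6, 99.4 and 103 CPM, against 155, 157 and 154 untreated, and fell by 0.63 (SE 0.05, adjusted p = 4.79e-09). CHAC1 and XPOT, both higher with siMlx in untreated cells, thus moved in opposite directions with the drug. CBS rose by 0.74 (SE 0.20, adjusted p = 0.00363) and STC2 fell by 0.28 (SE 0.05, adjusted p = 7.9e-05). ASNS fell by 0.31 (SE 0.11, adjusted p = 0.0204), a call lost without siControl_DXR replicate 2 (-0.28, adjusted p = 0.0635) or untreated siControl replicate 3 (-0.23, adjusted p = 0.114). PCK2 fell by 0.30 (adjusted p = 0.00969), a call lost without siControl_DXR replicate 3 (-0.22, adjusted p = 0.0676).

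Of the synthetases 3 rose and 4 fell with DXR (25.0% and 33.3%), against 28.1% and 28.6% of all tested genes. WARS, for tryptophan, rose by 0.72 (SE 0.13, adjusted p = 0.000122), at 343, 241 and 286 CPM against 179, 185 and 163 untreated. SARS rose by 0.23 (SE 0.05, adjusted p = 0.000448). CARS, for cysteine, rose by 0.15 (adjusted p = 0.0316), a call lost without siControl_DXR replicate 1 or 3 or untreated siControl replicate 1 or 3 (0.11 to 0.15, adjusted p = 0.0748 to 0.161) and with no low-count filter (0.12, adjusted p = 0.223). AARS fell by 0.34 (SE 0.06, adjusted p = 3.11e-05), TARS by 0.28 (SE 0.06, adjusted p = 0.000918) and YARS by 0.21 (SE 0.06, adjusted p = 0.00439). LARS fell by 0.17 (adjusted p = 0.0128), a call lost without untreated siControl replicate 1 (-0.13, adjusted p = 0.0834).

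Under the other siRNAs, DXR raised 10 members and lowered 13 with siMondoA (median -0.07; 26.2% and 28.0% of all tested genes), and raised 8 and lowered 20 with siMlx (median -0.21; 30.9% and 31.2%). Without untreated siMlx replicate 3 it raised 5 members with siMlx. With each of the 3 siRNAs, DXR raised ATF3, NUPR1, SLC7A5, SLC3A2, VLDLR and SARS. It lowered TRIB3, CEBPG, SLC1A5, SLC38A2, SLC6A9, STC2, XPOT, AARS, TARS and YARS with each. SLC7A11, SLC7A1 and SLC1A4 passed with none. The share of all tested genes called alike with all 3 siRNAs was not counted, so these lists have no background beside them. The SARS call was lost with siMondoA without siMondoA_DXR replicate 2 or untreated siMondoA replicate 2 or 3 (0.12 to 0.13, adjusted p = 0.0622 to 0.0876), and with siMlx without untreated siMlx replicate 3 (0.09, adjusted p = 0.145). The TARS call with siMondoA was lost without siMondoA_DXR replicate 2 (-0.18, adjusted p = 0.0511) or untreated siMondoA replicate 1 (-0.14, adjusted p = 0.0802), and the TRIB3 call with siControl as given above. With no low-count filter SARS passed with neither siMondoA nor siMlx (adjusted p = 0.168 and 0.194). ATF4 rose by 0.20 with siMondoA (SE 0.07, adjusted p = 0.0231) and fell by 0.24 with siMlx (SE 0.07, adjusted p = 0.00565). The ATF4 call with siMondoA was lost without siMondoA_DXR replicate 3 or untreated siMondoA replicate 1 or 3 (0.15 to 0.18, adjusted p = 0.067 to 0.112).

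**Figure D4:**
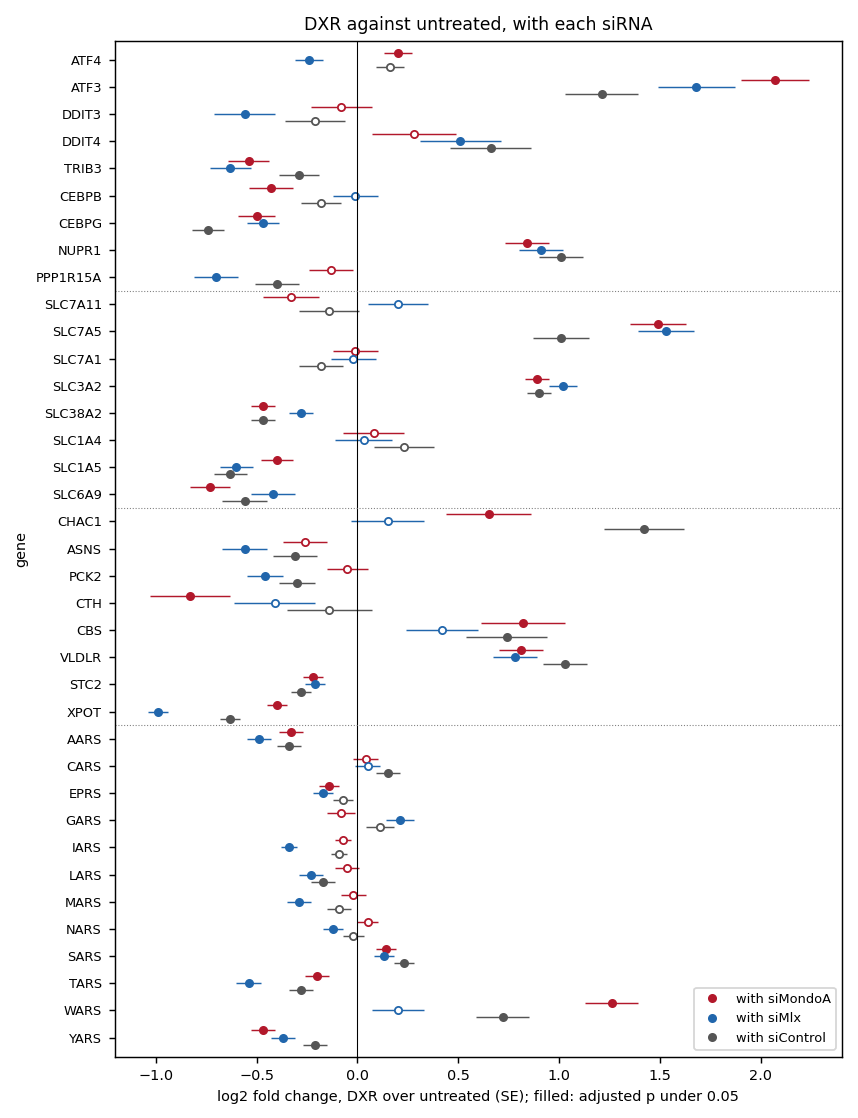
Log2 fold change of DXR over untreated (x axis, bars are SE) of each member (rows, by class) with siMondoA (red), siMlx (blue) and siControl (grey); filled points have an adjusted p under 0.05. The points for CHAC1 run from 0.15 with siMlx to 1.42 with siControl, and those for XPOT from -0.99 with siMlx to -0.40 with siMondoA.

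In DXR-treated cells, siMondoA raised ATF3, SLC7A11 and WARS most and lowered SLC7A1 and XPOT. Of the members 10 rose and 3 fell, with a median of 0.08, against 10.9% of all tested genes that rose and 13.9% that fell, with a median of 0.01; the share of members that rose was above the background. ATF3 had 16.9, 17.5 and 21.2 CPM with siMondoA, against 6.83, 6.91 and 6.66 with siControl, and rose by 1.45 (SE 0.16, adjusted p = 1.15e-06). SLC7A11 had 170.3, 153 and 132 CPM, against 70.2, 55.6 and 53.3 with siControl, and rose by 1.35 (SE 0.15, adjusted p = 1.66e-06). Both genes separated the groups without overlap. SLC7A1 fell by 0.73 (SE 0.11, adjusted p = 7.85e-05), at 81.2, 57.7 and 68.3 CPM against 128, 103 and 112. XPOT fell by 0.32 (SE 0.05, adjusted p = 0.000136), at 78.5, 81.1 and 81.9 CPM against 98.6, 99.4 and 103. SLC6A9 rose by 0.41 (SE 0.11, adjusted p = 0.00786), a call lost without siControl_DXR replicate 3 (0.29, adjusted p = 0.059). ASNS rose by 0.34 (SE 0.11, adjusted p = 0.0333), a call lost without siControl_DXR replicate 1, 2 or 3 or siMondoA_DXR replicate 1 or 2 (0.29 to 0.36, adjusted p = 0.058 to 0.116). VLDLR fell by 0.35 (adjusted p = 0.0212), a call lost without siControl_DXR replicate 1 or siMondoA_DXR replicate 2 or 3 (-0.33 to -0.28, adjusted p = 0.0614 to 0.1). STC2 rose by 0.19 (SE 0.05, adjusted p = 0.00855) with no overlap between the libraries, whereas with siMlx under DXR it fell. ATF4 (0.13), DDIT3 (0.32), TRIB3 (0.02) and CHAC1 (-0.35) did not pass.

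Synthetases that passed with siMondoA under DXR were 5 of 12 (41.7%), all upward, against 10.9% of all tested genes that rose. WARS had 456, 372 and 606 CPM with siMondoA, against 343, 241 and 286 with siControl, and rose by 0.72 (SE 0.13, adjusted p = 0.000412). YARS rose by 0.29 (SE 0.06, adjusted p = 0.00101) and AARS by 0.23 (SE 0.06, adjusted p = 0.00491). LARS and TARS rose by 0.19 each (adjusted p = 0.0168 and 0.0376). The LARS call was lost without siControl_DXR replicate 1 or 2 or siMondoA_DXR replicate 1 (0.16 to 0.19, adjusted p = 0.0513 to 0.076), and the TARS call without siControl_DXR replicate 2 or 3 or siMondoA_DXR replicate 1 (0.14 to 0.17, adjusted p = 0.112 to 0.179).

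With siMlx in DXR-treated cells ASNS, NUPR1 and SLC7A11 rose, WARS, SLC38A2, STC2 and VLDLR fell, and ATF4 did not pass. Of the members 10 rose and 4 fell, with a median of 0.14, against 14.0% of all tested genes that rose and 16.2% that fell, with a median of 0.01. Fewer members passed than in untreated cells, and so did fewer of all tested genes, for which the shares there were 24.9% and 23.0%. Without siControl_DXR replicate 2, 4 members rose. ATF4 had 230.2, 208 and 241 CPM with siMlx, against 204, 187 and 213 with siControl, and did not pass (0.17, SE 0.07, adjusted p = 0.0779). CHAC1 (0.46, adjusted p = 0.0586) and DDIT3 (0.20, adjusted p = 0.344) did not pass. SLC7A11 had 126, 115 and 99.5 CPM, against 70.2, 55.6 and 53.3 with siControl, and rose by 0.93 (SE 0.15, adjusted p = 9.11e-05). NUPR1 had 37.4, 34.6 and 39.5 CPM, against 19.5, 21.6 and 23.9 with siControl, and rose by 0.78 (SE 0.11, adjusted p = 1.38e-05). The siMlx libraries of both genes lay above every siControl library.

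ASNS rose by 0.50 (SE 0.11, adjusted p = 0.00193) and CEBPG by 0.36 (SE 0.09, adjusted p = 0.0034) with siMlx under DXR. CBS rose by 0.69 (SE 0.19, adjusted p = 0.00795), a call lost without siControl_DXR replicate 2 (0.56, adjusted p = 0.0505). PPP1R15A rose by 0.38 (SE 0.11, adjusted p = 0.0135), a call lost without siControl_DXR replicate 2 (0.34, adjusted p = 0.0585) or siMlx_DXR replicate 3 (0.33, adjusted p = 0.0645). TRIB3 rose by 0.33 (SE 0.10, adjusted p = 0.0225), a call lost without siControl_DXR replicate 1 or 2 or siMlx_DXR replicate 1 or 3 (0.25 to 0.31, adjusted p = 0.0652 to 0.123). SLC38A2 fell by 0.28 (SE 0.06, adjusted p = 0.000774), STC2 by 0.25 (SE 0.05, adjusted p = 0.000765) and VLDLR by 0.44 (SE 0.11, adjusted p = 0.00346). CEBPB, SARS and XPOT also rose, by 0.29, 0.15 and 0.16, and each call was fragile. CEBPB lost it without siControl_DXR replicate 1, 2 or 3 or siMlx_DXR replicate 1 or 3 (0.21 to 0.32, adjusted p = 0.056 to 0.19). SARS lost it without siControl_DXR replicate 1 or 2 or siMlx_DXR replicate 1 (0.13 to 0.15, adjusted p = 0.0514 to 0.0934) and with no low-count filter (0.15, adjusted p = 0.118). XPOT lost it without siControl_DXR replicate 1 or 2 or siMlx_DXR replicate 1 or 3 (0.12 to 0.15, adjusted p = 0.0589 to 0.142), when only these groups were fitted (0.15, adjusted p = 0.0819) and with no low-count filter (0.16, adjusted p = 0.115).

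WARS went the other way with siMlx: it had 213, 190 and 195 CPM, against 343, 241 and 286 with siControl, and fell by 0.54 (SE 0.13, adjusted p = 0.00414). WARS is known as an interferon-induced synthetase, and IFIT1, another interferon-induced gene, was read beside it, chosen after its values were seen. With DXR, IFIT1 averaged 1198 ± 133 CPM with siMondoA, 97.9 ± 61 with siMlx and 629 ± 102 with siControl. WARS averaged 478, 199 and 290 CPM there, the same order of the 3 siRNAs. In untreated cells IFIT1 averaged 68.3 ± 36, 2.35 ± 0.18 and 117 ± 86 CPM and WARS 199.9, 174 and 176 CPM. The order of the means there was not the same: IFIT1 was highest with siControl and WARS with siMondoA. IFIT1 was far lower with siMlx than with siControl, while WARS did not pass (-0.02, adjusted p = 0.933). The part of interferon-induced transcription in the WARS result was not tested.

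The change of a knockdown's effect between treatments was tested as an interaction. On the times given, the drug and the time since transfection cannot be told apart in it. With siMlx 4 members (10.8%) passed, against 12.2% of all tested genes, and all 4 had a siMlx effect that was smaller under DXR than in untreated cells. The difference between the 2 effects was -1.27 for CHAC1 (SE 0.27, adjusted p = 0.00394) and -0.40 for ATF4 (SE 0.10, adjusted p = 0.0116). It was -0.36 for XPOT (SE 0.07, adjusted p = 0.00262) and -0.25 for IARS (SE 0.06, adjusted p = 0.0127). The IARS call was lost without siMlx_DXR replicate 1 (-0.21, adjusted p = 0.0535) and with no low-count filter (-0.23, adjusted p = 0.121). With siMondoA 2 members (5.41%) passed, against 10.1% of all tested genes: ATF3 at 0.86 (SE 0.25, adjusted p = 0.0323) and XPOT at 0.23 (SE 0.07, adjusted p = 0.0479). The ATF3 call was lost without any 1 of the 3 siControl_DXR or the 3 untreated siControl libraries, siMondoA_DXR replicate 3, or untreated siMondoA replicate 1 or 3 (0.73 to 0.90, adjusted p = 0.0502 to 0.0858). The XPOT call was lost without any 1 of the 12 libraries of the 4 groups (0.22 to 0.25, adjusted p = 0.0535 to 0.108), with upper-quartile scaling (0.20, adjusted p = 0.0933) and with no low-count filter (0.25, adjusted p = 0.123).

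Other genes of the pathway were read from lists, whose counts stand beside these shares of all tested genes. In untreated cells 23.3% rose and 23.3% fell with siMondoA, and 24.9% rose and 23.0% fell with siMlx. In DXR-treated cells 10.9% rose and 13.9% fell with siMondoA, and 14.0% and 16.2% with siMlx. DXR with siControl raised 28.1% and lowered 28.6%. The lists are small, and no difference between a list and all genes was tested.

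Of 16 genes of eIF2 and its kinases, siMlx raised 5 and lowered 5 in untreated cells (31.2% each, median 0.04). EIF2S3, the gamma subunit of eIF2, rose by 0.94 (SE 0.04, adjusted p = 5.33e-13), and PPP1R15B, which directs dephosphorylation of eIF2 at rest, fell by 0.99 (SE 0.08, adjusted p = 4.81e-09). EIF2AK1, the haem-regulated eIF2 kinase, rose by 0.52 (SE 0.05) with siMlx and by 0.79 (SE 0.05, adjusted p = 9.29e-11) with siMondoA. With siMondoA 2 of the 16 rose and 3 fell (12.5% and 18.8%, below the shares of all genes; median 0.02), and with DXR and siControl 6 rose and 5 fell (median -0.01). In DXR-treated cells siMondoA raised 2 and lowered 1, and siMlx raised 4 and lowered 3.

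Of 27 further ATF4 pathway genes 22 were tested; GDF15 had 7 counts or fewer in every library, and FGF21, ADM2, SLC7A2 and CREB3L3 were also too low to test. With siMlx in untreated cells 14 rose and 3 fell (63.6% and 13.6%, median 0.37), and with siMondoA 5 rose and 8 fell (22.7% and 36.4%, median -0.15). PSAT1, of serine synthesis, rose by 0.66 (SE 0.08) with siMlx and fell by 0.74 (SE 0.09) with siMondoA. EIF4EBP1, a translation repressor, rose by 0.73 (SE 0.09) with siMlx and fell by 0.69 (SE 0.09) with siMondoA. MTHFD2, a mitochondrial folate enzyme, fell by 1.45 (SE 0.09, adjusted p = 1.16e-10) with siMondoA. These 3 genes were named for their smallest p with siMondoA. Over the 22 genes the changes with siMondoA ran from -1.45 to 1.61, so the largest was a rise. Set directly against siMlx, siMondoA left 16 of the 22 lower and 4 higher in untreated cells (median -0.48), against 30.4% and 28.5% of all tested genes. In DXR-treated cells siMlx raised 8 and lowered 0 (median 0.23), and siMondoA raised 1 and lowered 7 (median -0.09). DXR with siControl raised 9 and lowered 6 (median 0.15), SESN2, a nutrient sensor and p53 target, by 1.51 (SE 0.09) and GADD45A, also a p53 target, by 1.48 (SE 0.12), while PHGDH, of serine synthesis, fell by 1.01 (SE 0.10).

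Of 15 unfolded protein genes of the XBP1 and ATF6 branches, 6 rose and 6 fell with siMlx in untreated cells (40.0% each, both above the shares of all genes; median -0.12). EDEM1, an endoplasmic reticulum degradation factor, fell by 1.37 (SE 0.09, adjusted p = 2.75e-10), DNAJC3, an inhibitor of eIF2 kinases, by 0.92 (SE 0.06) and ATF6 by 0.76 (SE 0.05). With siMondoA 2 rose and 3 fell (median -0.03), ERN1, the sensor IRE1, by 1.09 (SE 0.16). DXR with siControl raised 6 and lowered 3 (median 0.13). In DXR-treated cells siMondoA raised 1 and lowered 3, and siMlx raised 2 and lowered 5.

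Synthetases outside the 12 were read beside them. Of 11 other cytosolic synthetase and scaffold genes, none of 9 with an entry held the core in a promoter; siMlx raised 5 and lowered 2 in untreated cells (45.5% and 18.2%, median 0.22; 0.20 for the 12 members). VARS, for valine, rose by 0.34 (SE 0.05), and the scaffold gene AIMP1 fell by 0.42 (SE 0.07). Of 16 mitochondrial synthetases, 1 of 14 with an entry (YARS2) held the core, and 7 rose and 2 fell (43.8% and 12.5%, median 0.15). With siMondoA in untreated cells 5 rose and 3 fell of the cytosolic list (EEF1E1, a scaffold gene, by 1.62, SE 0.16), and 7 rose and 2 fell of the mitochondrial one. DXR with siControl raised 0 and lowered 6 of the 11 (median -0.15), and raised 1 and lowered 8 of the 16 (median -0.18). In DXR-treated cells siMondoA raised 3 and lowered 1 of the 11 and raised 1 of the 16, and siMlx raised 2 and lowered 1 of the 11 and raised 1 and lowered 2 of the 16.

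**Figure D5:**
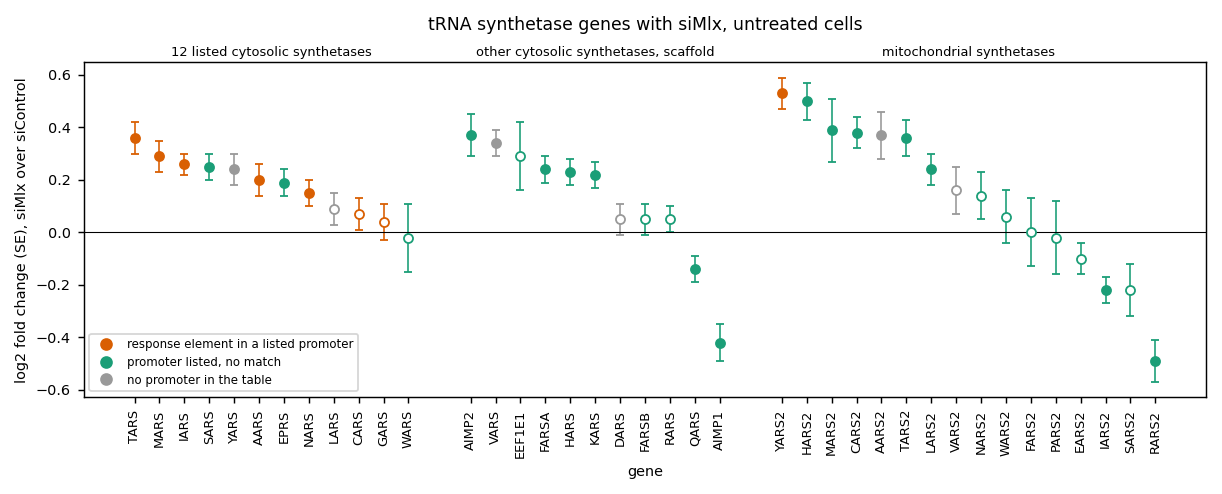
Log2 fold change (y axis, bars are SE) with siMlx over siControl in untreated cells of 12 member synthetases, 11 other cytosolic synthetase and scaffold genes and 16 mitochondrial synthetases; filled points have an adjusted p under 0.05 and colours give the promoter match (orange, core in a listed promoter; green, entry with no match; grey, no entry). Most genes of each set lie above 0; TARS at 0.36 has the core, AIMP2 at 0.37 has an entry with no match, and VARS at 0.34 has no entry.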

How the data were processed

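Poly(A) RNA of 18 RPE-1 libraries, 3 in each of 6 groups taken from the labels, was analysed from deposited gene tables. Per the labels' protocols, libraries were made with a stranded mRNA kit. The tools named are bcl2fastq and, for alignment to GRCh38, TopHat2 2.1.1, per the submitters' processing notes. Which program counted reads, on which annotation and strand, is not given in the sources used here. The authors deposited read counts per gene and RPKM of the same libraries; the RPKM were checked to follow from the counts, with a spread of the implied gene length of at most 0.0312 bases over 24846 genes, and the order of 35 of the 37 members by RPKM was the same by TMM-scaled CPM per kilobase.

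Counts were fitted with edgeR 4.0.16 (limma 3.58.1) in R 4.3.3: filterByExpr by group, TMM scaling, 1 mean per group over all 18 libraries (12 residual degrees of freedom, biological coefficient of variation 7.42%) and a two-sided quasi-likelihood test; p-values were adjusted over 13676 genes by Benjamini-Hochberg, with a threshold of 0.05. SE is the size of the log2 fold change divided by the square root of the F statistic. The 5 main contrasts set each siRNA against siControl untreated and with DXR, and DXR against untreated with siControl; 6 others, the interactions included, came from the same fit. The fit was tested on simulated data. Over 18 replicate pairs the chi-square per degree of freedom was 3.749 to 16.36, so no libraries were merged.

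ATF4, DDIT3, ASNS, TRIB3 and CHAC1 were named in every main comparison, with up to 6 members per direction with the largest change among those that passed, averaged 5 CPM or more in the higher of the groups and did not overlap between the libraries, every member that passed an interaction, and up to 3 genes of each other list with the smallest p. Further members are named to account for all 37, after their values were seen. Some genes of the comparison lists are not reported here. The members and the lists were chosen with earlier results of these data known. Positions of genes and overlapping exons were read from GENCODE 29 on GRCh38, and promoters from RefSeq on GRCh38.p14. Other settings tried were DESeq2 1.42.0, scaling by upper quartile or RLE, testing all genes with no low-count filter, requiring 1 CPM in 3 libraries, only the groups compared, the replicate number as a block, and leaving out each library of a comparison.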

Additional observations from a re-analysis of the deposited data

Results flagged for a closer look

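Differences between the effects of a knockdown with DXR and in untreated cells passed the interaction test (edgeR quasi-likelihood, adjusted p under 0.05) in 6 cases among the members. These are 4 of 37 members (10.8%) for siMlx, against 12.2% of all tested genes, and 2 (5.41%) for siMondoA, against 10.1%, so neither share was above the background. For siMlx they were CHAC1 at -1.27, ATF4 at -0.40, XPOT at -0.36 and IARS at -0.25, and for siMondoA ATF3 at 0.86 and XPOT at 0.23 on the log2 scale. The XPOT interactions have opposite signs with the 2 siRNAs, and the siMondoA one was lost without any 1 of the 12 libraries it uses.

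Among the genes of the other lists that were named, the siMondoA interaction was positive for MTHFD2 (0.70), PSAT1 (0.47), EIF2B1 (0.37) and FARSB (0.35), and negative for EDEM1 (-0.50), RARS2 (-0.41) and EIF2AK1 (-0.39). The siMlx interaction was negative for EEF1E1 (-0.62), EIF2S3 (-0.58), GADD45A (-0.53), EIF4EBP1 (-0.49), SESN2 (-0.44), HARS2 (-0.43), PSAT1 (-0.37), YARS2 (-0.37), GPT2 (-0.36) and EIF2AK1 (-0.28). It was positive for EDEM1 (0.91), DNAJC3 (0.45) and ATF6 (0.32).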

How the results depend on the processing

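Counts of members that passed stayed within 1.5 times their value under both other scalings, the 1 CPM filter and the fit of only the groups compared. With no low-count filter, 5 in place of 3 members fell with siMondoA under DXR. The siMondoA interaction passed in 4 members with DESeq2, in 4 with the replicate block and in 0 to 2 when 1 library was left out. Leaving out 1 library gave 7 to 12 members higher with siMondoA and 20 to 22 with siMlx in untreated cells, 4 to 11 higher with siMlx under DXR, 5 to 8 higher with DXR in siMlx cells, and 5 to 9 higher with siMondoA than with siMlx under DXR. No fold change of a named member that passed turned its sign. Some that had not passed reached or crossed 0 when 1 library was left out: TRIB3 with siMondoA under DXR (-0.04 to 0.09), DDIT3 with DXR in siMondoA cells (-0.22 to 0.03), CHAC1 with DXR in siMlx cells (-0.10 to 0.33), and, with siMondoA against siMlx under DXR, ATF4 (-0.10 to 0.00) and DDIT3 (-0.03 to 0.22). The causes were not tested. The library names of all 6 groups end in the same 3 numbers, 1 for each replicate. The labels do not say whether same-numbered libraries of different groups share a batch, and the main fit does not model the number. Their deviations correlated at -0.102 to 0.33 (median 0.0863), over 0.1 in 21 of 45 pairs. Between the DXR groups same-numbered pairs lay at 0.167 to 0.277, and 16 of 18 libraries correlated best with one of their own number. The p-values of the main fit thus leave out a likeness between same-numbered libraries. The replicate block gave 13 and 3 members higher and lower with siMondoA and 22 and 6 with siMlx in untreated cells, 10 and 3 with siMondoA and 12 and 6 with siMlx under DXR, and 11 and 14 for DXR with siControl. ATF4 with siMlx under DXR did not pass with the block either (0.17, adjusted p = 0.0715). Depth limits ATF3, CTH, CBS and CHAC1 most, which lie at 2.21 to 3.42 CPM in untreated siControl cells.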
